A study of Mus musculus with 10 samples.

Results

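Genes that set or mark the identity of melanoma cells were followed in B16F10 tumors: *Mitf*, *Sox10*, *Sox9*, *Pax3*, *Kit*, *Ednrb*, *Ngfr*, *Egfr*, *Tfap2a* and *Zeb1*. They are 10 of the 55401 gene rows in the count files, and each of the 10 symbols had 1 row. The genes were selected on measured values of the contrast between *Mir25* KO and NTC tumors, so their values in that contrast are given as a description, without p-values, and counts of calls among them support nothing. B16F10 is a pigmented mouse melanoma line that grows in C57BL/6J mice. The KO tumors (n = 5) came from B16F10 cells with CRISPR-Cas9 edits in *Mir25*, the gene of the miR-25 precursor, and the NTC tumors (n = 5) from B16F10 cells that carried non-targeting guides. All mice received Comb: 1000000 irradiated (100 Gy) GM-CSF-secreting B16 cells (GVAX) on days 1 and 4 and αPD-1 antibody at 10 mg/kg on days 6, 9 and 12. Tumors were taken on day 15. The mice of the study were female and 9 to 12 weeks old. The labels state 50000 injected tumor cells and the methods 500000. The study used guide-edited populations as well as single-cell clones, and the labels do not state which of these gave rise to the 10 tumors. The labels number the tumors within each group and name no shared animal, litter or batch.

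MITF is the transcription factor that turns on the pigment program of melanocytes. SOX10 and PAX3 are neural crest factors that activate its gene together with CREB and LEF1, and TFAP2A binds many of the same melanocyte enhancers. KIT and EDNRB are surface receptors that melanoblasts need to survive and migrate. Melanoma cells can leave the pigmented state: cells with little MITF are known to gain SOX9, the neurotrophin receptor NGFR, the EGF receptor EGFR or the mesenchymal repressor ZEB1. Several of these genes are also used by other cells of a tumor, EGFR and ZEB1 by fibroblasts, KIT by mast cells, EDNRB by vessels and some immune cells, and NGFR by Schwann cells and stroma. Bulk RNA therefore holds the sum over all these cells, and fewer cells of a type and less RNA per cell cannot be told apart.

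Because miR-25 was the edited gene, the sequences that could connect it with the regulators come first. The mature miRNA (RefSeq, GRCm38.p6, chr5:138165332-138165353, minus strand) is shown with its seed, bases 2 to 8, in capitals:

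miR-25-3p: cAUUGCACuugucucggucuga

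The same seed is shared by miR-32-5p, miR-363-3p, miR-367-3p, miR-92a-3p and miR-92b-3p, which lie at other loci. All 10 regulators have an annotated 3′ UTR in GENCODE M21, and these were searched on the sense strand for GTGCAAT, the complement of the seed (7mer-m8), and for the same letters followed by A (8mer). *Pax3* was the only regulator with a match, an 8mer at base 1355 after the stop codon, present in 2 of its 2 coding transcripts (GRCm38, chr1:78101946-78101953, minus strand). It is shown with the 16 bases before it and the 8mer in capitals:

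*Pax3* site: atatctgcttctcagcGTGCAATA

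Of 12890 expressed coding genes with a 3′ UTR, 1062 (8.24%) held such a match and 383 (2.97%) held the 8mer. With the 6mer TGCAAT counted as well, 6 of the 10 regulators (*Mitf*, *Sox9*, *Pax3*, *Ngfr*, *Egfr* and *Tfap2a*) had a match, beside 27.7% of all genes. The longest 3′ UTRs of 9 regulators had 1813 to 6303 bases and that of *Sox10* 1030, against a median of 1199 over all genes, and the shares are not adjusted for length. A match is a string of letters and was not tested as a binding site.

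The second sequence is a promoter window of *Mitf*, shown because *Mitf* is the factor around which the other genes were grouped. Here 3 start sites of *Mitf* are listed in RefSeq, and the most downstream one is known as the start of the melanocyte form. Its window, 250 bases before to 50 after the start (GRCm38.p6, chr6:97991533-97991832, plus strand), is shown with TGACGTCA, the letters bound by CREB, and CTTTGA, a core bound by LEF1, in capitals:

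*Mitf* promoter: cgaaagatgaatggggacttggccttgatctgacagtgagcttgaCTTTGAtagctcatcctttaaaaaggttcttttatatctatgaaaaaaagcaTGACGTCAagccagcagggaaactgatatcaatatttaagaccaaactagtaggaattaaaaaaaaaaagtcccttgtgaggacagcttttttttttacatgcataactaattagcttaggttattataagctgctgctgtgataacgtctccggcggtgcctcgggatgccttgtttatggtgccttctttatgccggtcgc

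Searched on both strands, TGACGTCA occurs in 1.79% of the 32851 promoter windows of this length in RefSeq and CTTTGA in 16%. The SOX letters ACAAAG and ACAAT (18.7% and 31.0% of windows) and CATGTG (14.2%), the core that MITF itself binds, were not in this window. Among the 10 windows found for *Kit*, *Mitf*, *Egfr*, *Ngfr*, *Tfap2a* and *Ednrb*, TGACGTCA was in 1 and CTTTGA in 2, all of these in *Mitf*.

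The tumors had between 23243707 and 28682130 reads on genes, except NTC replicate 1 with 11896643. That library also had the largest share of reads that matched no gene (42.9%, against 17.5% to 28.2% in the others) and counts on 33193 genes, against 22192 to 25435. Differences of the regulators are therefore given with and without it. Summed over the 10 pigment and melanosome genes used as melanoma markers, the tumors held 11850 to 22444 CPM (counts per 1000000 counts of the TMM-normalized library), and all 10 markers had counts in each tumor. NTC replicate 1 held the lowest sum, and the other NTC tumors held 20038 to 22444 CPM against 12203 to 20060 CPM in KO tumors. Leukocyte markers summed to 673 to 3395 CPM in KO and 336 to 1054 CPM in these 4 NTC tumors (2601 CPM in NTC replicate 1), with all 10 detected throughout. Fibroblast markers spanned 1083 to 6263 CPM in KO, 79.2 to 1898 CPM in the 4 NTC tumors and 6975 CPM in NTC replicate 1. The deletion itself could not be checked, as *Mir25* had 0 counts in every tumor. Of the other lists, endothelial markers summed to 218 to 331 CPM in KO and 172 to 376.1 CPM in NTC tumors, muscle markers to 2.54 to 216 and 1.30 to 4.71 CPM, and keratinocyte markers to 3.49 to 30.5 and 1.83 to 6.06 CPM.

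Per kilobase of exon, the regulators covered a wide range of levels. *Mitf* had the highest median over the 10 tumors, 131 CPM per kb, followed by *Sox10* at 69.1 and *Pax3* at 26.7 CPM per kb. *Mitf* exceeded *Sox10* in 10 of 10 tumors although their ranges touched, and the ranges of *Sox10*, *Pax3* and *Tfap2a* (4.51 CPM per kb) did not meet. *Ednrb* followed at a median of 2.66 CPM per kb, with a range of 0.700 to 31.0 that covered that of *Tfap2a*. *Sox9*, *Egfr*, *Zeb1* and *Kit* lay together at medians of 0.940, 0.933, 0.893 and 0.875 CPM per kb, and each was above the next in only 5 of 10 tumors, so their order is within the spread. *Ngfr* was last at 0.0847 CPM per kb, below *Kit* in every tumor. The levels differed far more between tumors for some genes than for others: the highest tumor was 2.07 to 2.40 times the lowest for *Pax3*, *Sox10*, *Mitf* and *Kit*, and 11.3 times for *Zeb1*, 44.3 times for *Ednrb* and 143 times for *Egfr*.

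**Figure D1:**
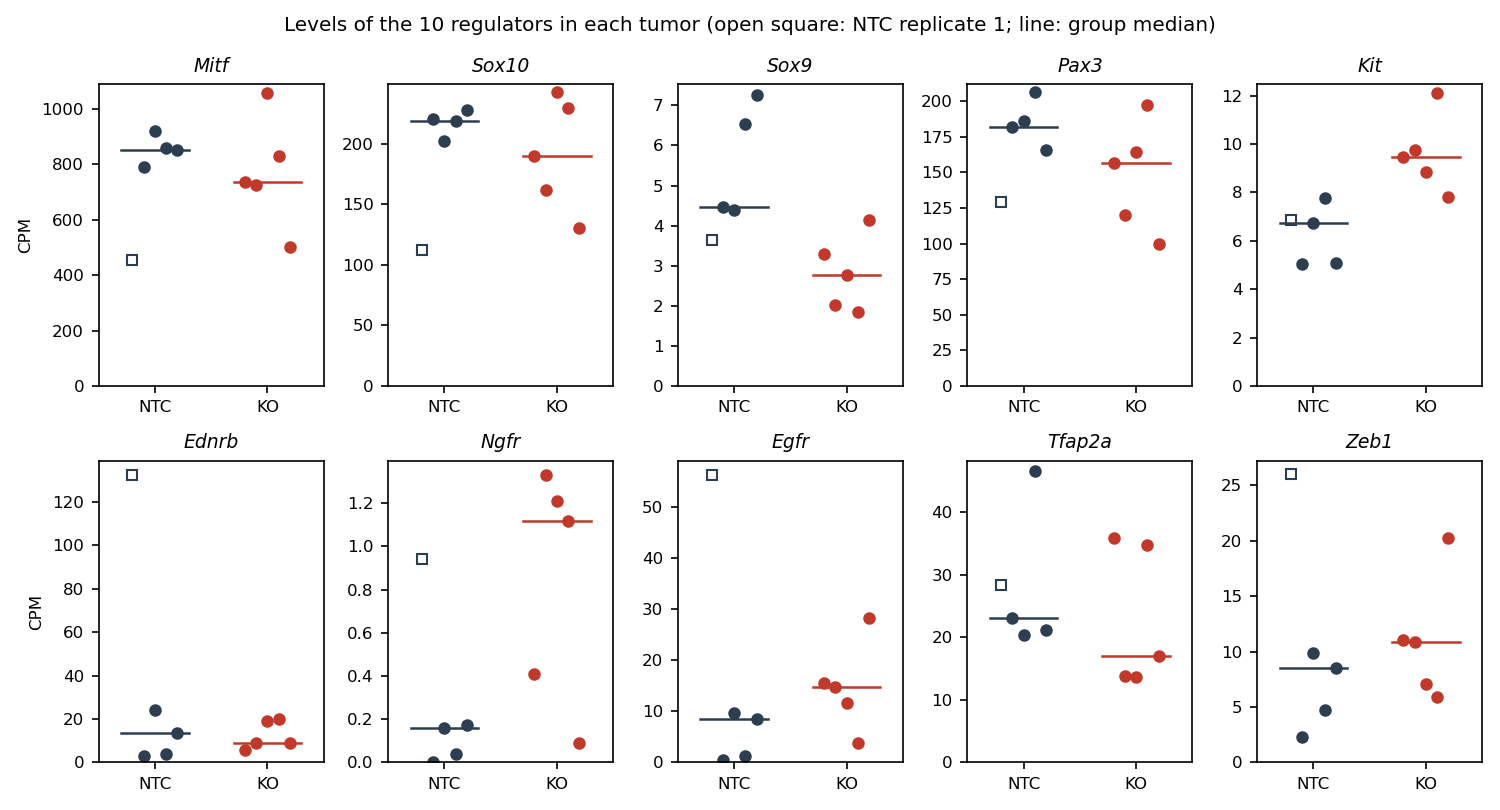
Each panel plots 1 regulator, with CPM on the vertical axis from 0 and 1 point per tumor for NTC and KO; lines are group medians and the open square is NTC replicate 1. The 5 KO points of *Kit* sit above the 5 NTC points, while for *Ednrb*, *Egfr* and *Zeb1* the open square is the highest tumor.

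The question for the lineage factors was whether tumors of *Mir25* KO cells kept the melanocytic program. *Mitf* (chr6:97807052-98021349) was at 738, 727, 1058, 830 and 501 CPM in the KO tumors. In the NTC tumors it was at 456, 789, 920, 861 and 851 CPM. The groups overlapped over nearly their whole range, and the lowest NTC tumor was replicate 1. Means were 771 ± 201 CPM in KO and 776 ± 184 CPM in NTC (SD, n = 5 each), a log2 fold change (KO minus NTC) of -0.01 with a standard error (SE) of 0.22. Without NTC replicate 1 it was -0.18 (SE 0.19), and with the leukocyte score as a covariate it turned to 0.25. The counts sum all *Mitf* transcripts, so the melanocyte form was not separated from the others.

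*Sox10* (chr15:79154908-79165240), which is needed for the melanocyte fate from the neural crest onward, followed *Mitf* closely. KO tumors held 190, 162, 243, 230 and 130 CPM. NTC tumors held 112, 221, 203, 219 and 228 CPM. The highest and the lowest tumor of each gene were the same, KO replicate 3 and NTC replicate 1. KO against NTC, the log2 fold change was -0.04 (SE 0.22) and without NTC replicate 1 -0.22 (SE 0.18), and it turned to 0.24 with the leukocyte score as a covariate. The ratio of *Mitf* to *Sox10* counts, which no normalization touches, was 3.61 to 4.48 in KO (median 3.89) and 3.57 to 4.54 in NTC (median 3.92).

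*Pax3* (chr1:78101267-78197134), a paired-box factor of melanoblasts and the regulator with the 8mer shown above, was at 157, 120, 164, 197 and 99.5 CPM in KO tumors. NTC tumors held 129, 182, 186, 206 and 166 CPM. The groups overlapped, with 2 KO tumors below every NTC tumor and none above. The log2 fold change was -0.24 (SE 0.19) over all tumors and -0.35 (SE 0.19) without NTC replicate 1. Scaled to the melanoma marker counts, which moves the median of all genes by 0.21, *Pax3* was at -0.03, *Mitf* at 0.22 and *Sox10* at 0.20.

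*Tfap2a* (chr13:40715302-40738376), the AP-2α factor of the neural crest, was at 35.8, 13.8, 13.6, 34.6 and 17.0 CPM in KO and 28.3, 23.0, 20.4, 46.5 and 21.2 CPM in NTC tumors. KO tumors formed a high pair and a low trio on either side of most NTC tumors. Its log2 fold change was -0.28 (SE 0.35), and -0.30 (SE 0.38) without NTC replicate 1. Over the alternatives it ran from -0.50, without KO replicate 1, to -0.01, without NTC replicate 4. The antisense genes *Gm47061* and *Gm26688*, which overlap *Tfap2a*, had at most 24 and 35 counts, against 210 to 1143 on *Tfap2a*.

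*Sox9* (chr11:112782224-112787760), the SOX factor that rises when SOX10 is lost from melanoma cells, was low in all tumors. KO tumors held 3.28, 2.01, 2.76, 1.84 and 4.14 CPM. NTC tumors held 3.64, 4.46, 4.39, 6.55 and 7.25 CPM. On this scale only NTC replicate 1 lay within the KO range, and the other NTC tumors began at 4.39 CPM. Per 1000 counts on the melanoma markers the groups overlapped also without that tumor, at 0.104 to 0.339 in KO and 0.199 to 0.362 in NTC tumors. The log2 fold change was -0.91 (SE 0.29) and -1.05 (SE 0.28) without that tumor, and over the other alternatives it ran from -0.60, with scaling to melanoma markers, to -1.09. The values rest on 51 to 93 counts in KO tumors, 136 to 209 in 4 NTC tumors and 27 in NTC replicate 1. Across the 10 tumors the log2 CPM of *Sox9* and *Sox10* had an r of 0.10, given as a description without a test.

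Among the receptors, *Kit* (chr5:75574916-75656722), the receptor of stem cell factor, was at 9.47, 9.76, 8.83, 12.1 and 7.83 CPM in KO tumors. NTC tumors held 6.87, 5.06, 6.72, 7.77 and 5.06 CPM. All KO tumors were above all NTC tumors, by a margin of 7.83 against 7.77 CPM at the closest point. The log2 fold change was 0.61 (SE 0.18), also 0.61 (SE 0.19) without NTC replicate 1, and between 0.51 and 0.79 over the alternatives. Per 1000 counts on the melanoma markers, *Kit* had 0.440 to 0.688 counts in KO and 0.225 to 0.580 in NTC tumors, so on that scale the groups overlapped through NTC replicate 1 alone. Mast cell markers, which label another *Kit*-expressing cell, summed to 6.13 to 12.3 CPM in KO and 2.16 to 38.5 CPM in NTC tumors. The tumor with 38.5 CPM was NTC replicate 1, and the part of mast cells in the *Kit* values was not tested.

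*Ednrb* (chr14:103814625-103844402), the endothelin B receptor, depended on a single tumor. KO tumors held 5.90, 9.15, 19.1, 19.97 and 8.85 CPM. NTC tumors held 132, 2.99, 24.1, 3.66 and 13.5 CPM, the first value being replicate 1. The KO range lay inside the range of the other 4 NTC tumors. Accordingly the log2 fold change was -1.46 (SE 0.94) with NTC replicate 1 and 0.17 (SE 0.62) without it. Adipocyte markers summed to 287 CPM in NTC replicate 1, against 9.35 to 86.5 CPM in the other NTC tumors and 63.6 to 207 CPM in KO tumors, and their part in the *Ednrb* value was not tested. Reads spread over genes that had no count in the other 9 libraries came to 0.915 counts per kb in NTC replicate 1, and *Ednrb* had 230 counts per kb there.

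*Ngfr* (chr11:95568818-95587735), the low-affinity neurotrophin receptor and a marker of neural crest-like melanoma cells, was close to the limit of detection. The counts were 10, 35, 36, 31 and 2 in KO tumors. In NTC tumors they were 7, 0, 5, 1 and 5. In CPM these were 0.410, 1.33, 1.21, 1.12 and 0.0890 for KO and 0.943, 0, 0.158, 0.0407 and 0.173 for NTC, where the 0 allows up to 0.0985 CPM (3 counts, counting error only). The groups overlapped: KO replicates 1 and 5 lay within the NTC range, and NTC replicates 1, 3 and 5 within the KO range. On the log2 scale the fold change was 2.12 (SE 1.00), and 3.07 (SE 0.88) without NTC replicate 1. *Ngfr* passed the filter on low counts through KO replicates 1 to 4 and NTC replicate 1, so its difference is not independent of that filter. In NTC replicate 1, the level on genes without counts elsewhere was 45.0% of the level on *Ngfr*. Markers of Schwann cells, which also carry NGFR, summed to 49.2 to 86.1 CPM in KO and 39.7 to 57.0 CPM in NTC tumors. *Mbp* gave 17.4 to 44.6 CPM and *Cnp* 14.8 to 38.3 CPM, so the sum rests mainly on these genes. Only 4 of the 9 listed markers passed the filter, and *Foxd3* was at 0 in every tumor. The part of Schwann cells in the *Ngfr* values was not tested.

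*Egfr* (chr11:16752203-16918158), the EGF receptor, had the widest range among the 9 regulators with counts in every tumor. KO tumors held 15.5, 14.7, 11.6, 3.89 and 28.3 CPM. NTC tumors held 56.2, 0.394, 9.59, 1.18 and 8.53 CPM. Both the highest and the lowest tumor were NTC tumors. Between the groups the log2 fold change was 0.00 (SE 1.02), and 1.55 (SE 0.83) without NTC replicate 1. The antisense gene *Egfros* had at most 8 counts.

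*Zeb1*, the zinc finger repressor of epithelial genes whose rise over ZEB2 accompanies loss of MITF in melanoma, was at 11.1, 10.9, 7.11, 5.91 and 20.2 CPM in KO tumors. NTC tumors held 26.0, 2.30, 9.84, 4.72 and 8.50 CPM. The tumors stood in nearly the same order as for *Egfr*, with NTC replicate 1 and KO replicate 5 at the top and NTC replicates 2 and 4 at the bottom. *Zeb1* had a log2 fold change of 0.13 (SE 0.58), and 0.76 (SE 0.45) without NTC replicate 1. The value was -0.20 without KO replicate 5, -0.13 without NTC replicate 2 and -0.05 without NTC replicate 4. With the leukocyte score as a covariate it was -0.43.

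Read over the whole set, edgeR's test called 0 of the 10 regulators (adjusted p under 0.05 and an absolute log2 fold change above 1), with 0.019% of the 15821 genes tested called. DESeq2 over the same 10 tumors also called 0, beside 96 of 15821 genes. At an unadjusted p under 0.05, 1 regulator was higher in KO tumors (*Kit*, beside 3.99% of all genes) and 1 lower (*Sox9*, beside 4.85%). All KO tumors lay above all NTC tumors for 1 regulator (*Kit*, beside 0.866% of genes) and below them for 0 (beside 1.47%). DESeq2 without a filter over the 9 tumors other than NTC replicate 1 called *Sox9* lower and *Ngfr* higher, 2 of 10, beside 4.05% of 18601 genes. Since the genes were selected on this contrast, nothing is read from these shares. The median log2 fold change of the 10 was -0.03, and 0.01 over all genes.

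**Figure D2:**
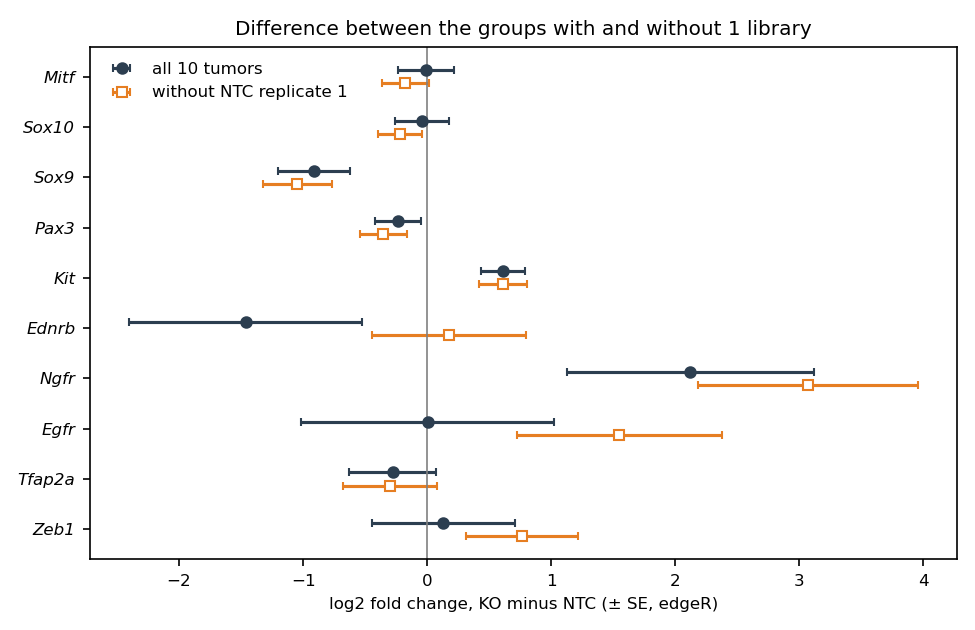
The horizontal axis is the log2 fold change, KO minus NTC, with bars of 1 SE from edgeR, for all 10 tumors (circles) and without NTC replicate 1 (squares). *Kit* and *Sox9* kept their place, while *Ednrb* went from -1.46 to 0.17 and *Egfr* from 0.00 to 1.55 when 1 library was left out.

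The regulators were also compared with the cell types of the tumors. For each of 6 cell types with at least 5 markers among the tested genes (melanoma, leukocyte, fibroblast, endothelial, adipocyte and mast cells), a score was formed as the mean log2 CPM of its markers, and the 10 regulators were correlated with the 6 scores over the 10 tumors. None of the regulators is a marker. The 10 melanoma markers, however, are pigment genes, part of the program that MITF turns on. The melanoma score and the scaling to these markers are therefore not measures of melanoma cell content independent of MITF. Of 60 pairs, 15 positive and 4 negative relations had a Benjamini-Hochberg adjusted permutation p under 0.05. The pairs share tumors, depth and scaling, and the scores move together (r = 0.91 between leukocyte and fibroblast scores and -0.81 between melanoma and leukocyte scores), so they are not separate results. The correlations pool both groups and so also hold the difference on which the regulators were selected. They were therefore repeated, as an alternative chosen after seeing the data, with the group means removed and with tumors permuted within KO and within NTC only (exact permutation test, 14400 arrangements). Then 13 positive and 8 negative relations passed, 16 of them among the 19. The other 3 (*Pax3* with the melanoma score, *Ednrb* with the mast cell score and *Egfr* with the adipocyte score) had an r of 0.73, 0.87 and 0.80 and an adjusted p of 0.0655, 0.0766 and 0.0842 in the exact test. Each group alone has too few tumors (n = 5) for a correlation.

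*Mitf* and *Sox10* went with the melanoma score, and *Pax3* less closely. *Mitf* rose with the melanoma score (Pearson's r = 0.91, permutation p = 0.0007, adjusted p = 0.00456; Spearman's rho = 0.76, permutation p = 0.0153, adjusted p = 0.0612). Leaving out the 2 tumors farthest from the median score, r was 0.66, and without NTC replicate 1 it was 0.86. For *Sox10* r was 0.92 (permutation p = 0.00076, adjusted p = 0.00456) and rho 0.79 (permutation p = 0.00881, adjusted p = 0.0587), with an r of 0.71 without the 2 farthest tumors. *Pax3* had an r of 0.77 with this score (permutation p = 0.0105, adjusted p = 0.0351) and a rho of 0.56 (permutation p = 0.0951, adjusted p = 0.214). That r was 0.48 without the 2 farthest tumors, and the relation no longer passed in 5 of 12 alternatives, including without NTC replicate 1 (r = 0.77). *Pax3* had its closest relation with the leukocyte score, in the opposite direction: r was -0.91 (permutation p = 0.00011, adjusted p = 0.00132) and rho -0.92 (permutation p = 0.0005, adjusted p = 0.00696). Without the 2 farthest tumors that r was -0.87. *Sox10* also fell with the leukocyte score (r = -0.79, permutation p = 0.00552, adjusted p = 0.022; rho = -0.72, permutation p = 0.0237, adjusted p = 0.0887; r = -0.70 without the 2 farthest tumors). *Pax3* against the endothelial score had an r of -0.75 (permutation p = 0.0141, adjusted p = 0.0445) and a rho of -0.77 (permutation p = 0.0127, adjusted p = 0.0597). That r was -0.79 without the 2 farthest tumors, and the relation no longer passed in 7 of 12 alternatives.

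*Egfr* and *Zeb1* went with the stroma. *Egfr* followed the fibroblast score with an r of 0.98 (permutation p = 2e-05, adjusted p = 0.0003) and a rho of 0.99 (permutation p = 2e-05, adjusted p = 0.0006), and r stayed at 0.93 without the 2 farthest tumors. *Zeb1* followed it with an r of 0.96 (permutation p = 1e-05, the smallest that 100000 permutations give, adjusted p = 0.0002) and a rho of 0.99 (permutation p = 1e-05, adjusted p = 0.0006), and r was 0.97 without the 2 farthest tumors. Both also passed with the endothelial score (r = 0.98 and 0.94), the leukocyte score (0.89 for each) and the mast cell score (0.94 and 0.87). *Zeb1* was lower where the melanoma score was higher (r = -0.82, permutation p = 0.00279, adjusted p = 0.0129; rho = -0.76, permutation p = 0.0149, adjusted p = 0.0612), a relation that was -0.54 without the 2 farthest tumors and no longer passed without NTC replicate 1 (r = -0.73).

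The remaining receptors were less regular. *Ngfr* had an r of 0.85 and a rho of 0.78 with the adipocyte score, and an r of 0.72 without the 2 farthest tumors. This is given as a description, although it is 1 of the 15 positive pairs counted. *Ngfr* passed the filter mainly through KO tumors, and 7 of its 10 values rest on 10 reads or fewer. *Ednrb* rose with the mast cell score (r = 0.83, permutation p = 0.00373, adjusted p = 0.016; rho = 0.67, permutation p = 0.0383, adjusted p = 0.115), and neither this relation nor the one with the adipocyte score (r = 0.75) passed without NTC replicate 1. For *Sox9*, *Kit* and *Tfap2a* 0 of 18 relations passed, and 0 had an unadjusted permutation p under 0.05 (the lowest was 0.147).

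**Figure D3:**
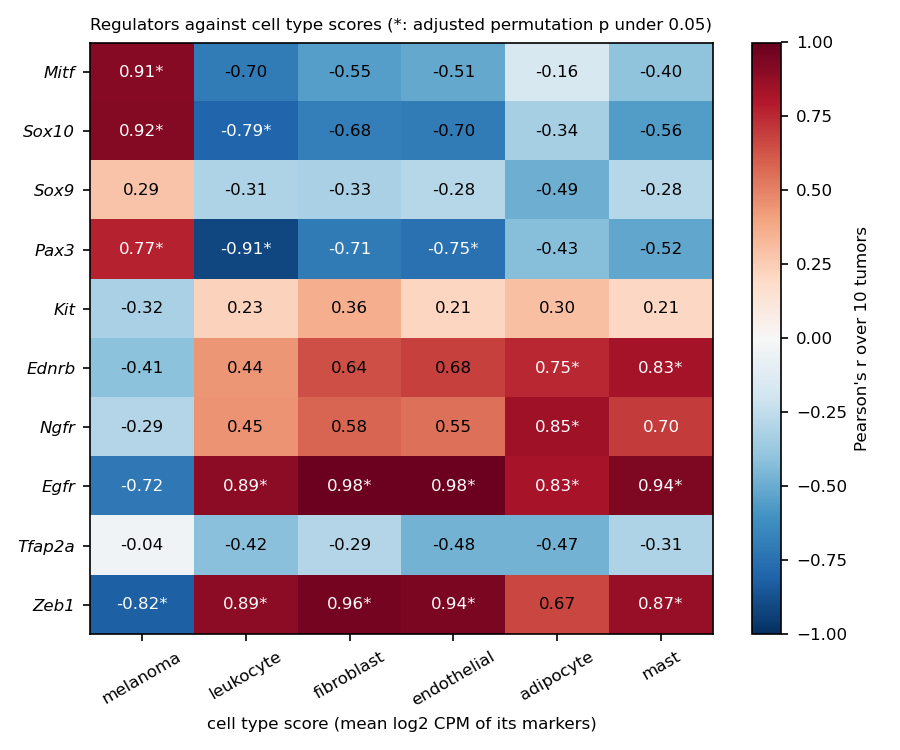
Colors and numbers give Pearson's r over 10 tumors between the log2 CPM of each regulator (rows) and each cell type score (columns), with a star where the adjusted permutation p was under 0.05. *Mitf*, *Sox10* and *Pax3* are positive in the melanoma column and negative elsewhere, and *Egfr* and *Zeb1* show the opposite pattern.

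**Figure D4:**
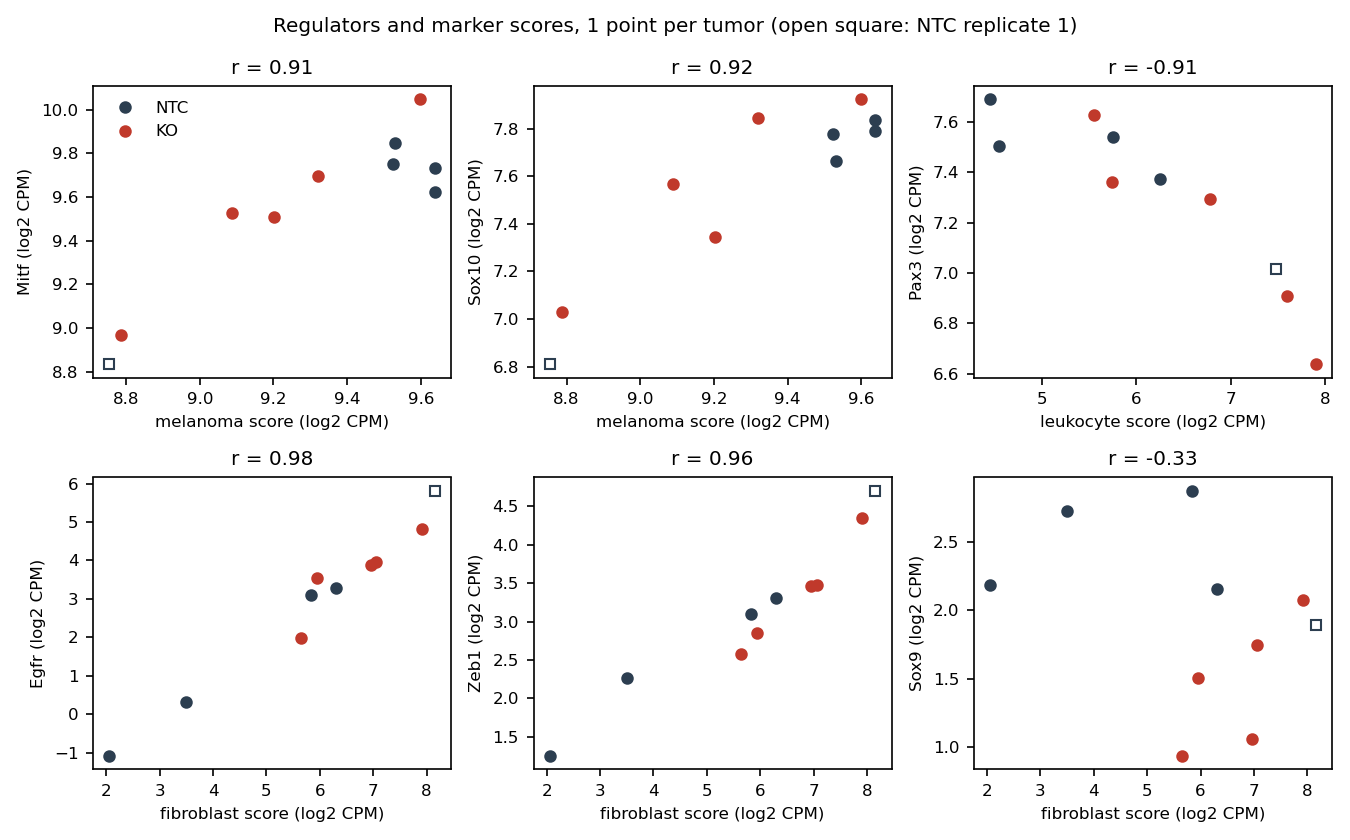
Each panel plots the log2 CPM of 1 regulator against 1 score in log2 CPM, with 1 point per tumor colored by group. NTC and KO tumors fall on a common line for *Egfr* and *Zeb1* (r = 0.98 and 0.96), whereas for *Sox9* (r = -0.33) the points of the groups follow no common line.

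The genes with the most similar pattern across tumors were ranked by the smaller of 2 Pearson's r values, over 10 tumors and over the 9 without NTC replicate 1, among 12369 genes with a mean log2 CPM above 1. For *Mitf* these were *Rab17* (0.98), *Tyr* (0.98) and *Atp6v0e2* (0.96). *Tyr*, tyrosinase, is the first enzyme of melanin synthesis and a target of MITF. For *Sox10* they were *Plekhh3* (0.99), *Tbx2* (0.98) and *Polr1b* (0.98), and for *Pax3* *Cc2d2a*, *Lig3* and *Srbd1* (each 0.98). *Sox9* was most like *Zdhhc23* (0.93), *Cpped1* and *Rufy2* (both 0.92). *Kit* was most like *B230219D22Rik* (0.92), *Fam160b1* (0.91) and *Ptprd* (0.90). *Egfr* paired with *Atp8b1*, *Igsf10* and *Scn7a* (each 0.99), and *Zeb1* with the basement membrane gene *Nid1* (0.98), *Il1rl2* (0.98) and *Ccr2* (0.98), the receptor of inflammatory monocytes. *Ednrb* was most like *Cbr2* (0.96), *Cd209f* (0.92) and *Ptx3* (0.88), of which *Cd209f* encodes a C-type lectin. *Ngfr* was most like *Gpx8* (0.90), *Dgat2* (0.88) and the adipocyte gene *Car3* (0.87), and *Tfap2a* like *Maml1* (0.97), *Atxn2l* (0.96) and *Jmjd1c* (0.96). These are descriptions over 10 tumors.

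The pathways around the regulators were described with 7 lists of 105 genes, 80 of which passed the filter. These lists were chosen with earlier results of these data known, so their counts and p-values are a description and support nothing. By edgeR, 0 of the 80 were called, 0 were higher and 8 were lower in KO tumors at an unadjusted p under 0.05, beside 0.019%, 3.99% and 4.85% of all genes tested. DESeq2 called 1 over all 10 tumors, beside 96 of 15821 genes, and 2 over the 9, beside 4.05% of 18601 genes.

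Among 16 pigment genes, 14 had a negative and 2 a positive log2 fold change, with a median of -0.21 (-0.36 without NTC replicate 1) against 0.01 over all genes, of which 7701 of 15821 were negative. Leukocyte markers had the opposite sign, with 10 of 10 positive and a median of 0.85 (1.52 without NTC replicate 1). So did 9 of 10 fibroblast markers (median 0.30, and 1.60 without it). None of the leukocyte or fibroblast markers had an unadjusted edgeR p under 0.05 over all tumors. The part of these markers' cells in the pigment genes' values was not tested. *Trpm1*, a melanocyte cation channel, was at 307 to 540 CPM in KO and 389 to 746 CPM in NTC tumors (log2 fold change -0.47, SE 0.19, edgeR adjusted p = 0.494). *Rab27a*, the GTPase that ties melanosomes to the cell cortex, was at 170 to 257 against 193 to 315 CPM (-0.39, SE 0.15, adjusted p = 0.493). Neither passed the test and both groups overlapped.

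The list of MITF targets outside pigmentation held the gene with the lowest edgeR p among the list genes. *Ppargc1a*, which encodes the mitochondrial coactivator PGC-1α and is driven by MITF in a subset of melanomas, was at 146, 129, 127, 152 and 95.0 CPM in KO tumors. In NTC tumors it was at 204, 248, 248, 431 and 236 CPM, so every KO tumor was below every NTC tumor, replicate 1 included. Its log2 fold change was -1.07 (SE 0.21, edgeR adjusted p = 0.137), and -1.19 without NTC replicate 1 (adjusted p = 0.0613). DESeq2 gave an adjusted p of 0.00065 over 10 tumors, and over 17 alternatives the adjusted p ran from 7.48e-05 to 0.356 with log2 fold changes from -1.19 to -0.82. *Rragd*, a GTPase that relays lysosomal nutrient signals, was at 13.8 to 22.0 CPM in KO and 23.8 to 34.0 CPM in NTC tumors, also without overlap (-0.62, SE 0.17, edgeR adjusted p = 0.278). These were 2 of the 11 tested genes of the list, beside 1.47% of all genes with every KO tumor below every NTC tumor, while *Mitf* itself had a fold change near 0 and the list's median was -0.08. *Met*, *Bcl2*, *Cdk2*, *Tbx2* and the other members lay between -0.24 and 0.73, and none of them passed.

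Of 9 tested genes that act upstream of or beside MITF, *Ctnnb1*, which encodes the β-catenin that works with LEF1, was at 924 to 1154 CPM in KO and 889 to 1827 CPM in NTC tumors (-0.50, SE 0.17, edgeR adjusted p = 0.415). *Bhlhe40*, a repressor of *Mitf*, was at 114 to 195 against 162 to 284 CPM (-0.50, SE 0.19, adjusted p = 0.452). *Tfec*, the MITF relative of macrophages, was called higher by DESeq2 without NTC replicate 1 only (log2 fold change 2.64, adjusted p = 2.38e-05, with 2.38e-05 to 0.971 over 17 alternatives). Its NTC values were 1.35 to 2.52 CPM in 4 tumors and 20.1 CPM in replicate 1, and its KO values were 3.75 to 26.1 CPM. *Creb1* had a log2 fold change of 0.01 (SE 0.07, adjusted p = 0.965).

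In the neural crest list 0 of 12 tested genes passed even at an unadjusted p under 0.05, with a median of 0.08. The genes with the lowest p were *S100b*, a glial and melanoma marker, at 52.8 to 78.6 CPM in KO and 55.5 to 84.9 CPM in NTC (-0.27, SE 0.14, edgeR adjusted p = 0.628), and *Id3*, an inhibitor of helix-loop-helix factors (0.77, SE 0.45, adjusted p = 0.651). *Sox8*, *Tfap2b*, *Tfap2c*, *Msx1*, *Msx2* and *Mia* were filtered out as low. Of 14 tested genes of the dedifferentiated state, *Ccn1*, a YAP target, was the only one at an unadjusted p under 0.05, at 21.5 to 64.9 CPM in KO and 49.2 to 111 CPM in NTC tumors (-0.94, SE 0.32, edgeR adjusted p = 0.401). *Ccn2*, another YAP target, was at 13.4 to 23.1 CPM in KO and 15.9 to 80.2 CPM in NTC tumors (-0.83, SE 0.42, adjusted p = 0.617), and at -0.27 without NTC replicate 1. *Axl*, the receptor kinase often used to mark that state, had a log2 fold change of 0.42 (SE 0.31, adjusted p = 0.726). The median of the list changed sign, from -0.17 with NTC replicate 1 to 0.34 without it.

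In the epithelial to mesenchymal list, *Cdh2*, N-cadherin, was at 22.2 to 49.6 CPM in KO and 44.7 to 60.3 CPM in NTC tumors (-0.63, SE 0.19, edgeR adjusted p = 0.322). *Cdh1*, E-cadherin, was at 1.75 to 3.78 CPM in KO and 1.06 to 3.10 CPM in NTC tumors (0.57, SE 0.35, adjusted p = 0.673). *Zeb2*, the partner of *Zeb1* in the melanocytic state, was at 0.04 (SE 0.23, adjusted p = 0.964), and 7 of the 8 tested genes had a positive fold change, as did 8120 of all 15821 genes. The part of the leukocyte and fibroblast markers, which were mostly positive as given above, was not tested here either. Ligands and co-receptors were sparse: 10 of 22 passed the filter, and *Edn3*, *Tgfa*, *Areg*, *Btc* and *Ereg* were among those that did not. *Kitl*, the ligand of KIT, had a log2 fold change of 0.40 (SE 0.49, edgeR adjusted p = 0.837). *Ednra*, the second endothelin receptor, was at 0.901 to 6.27 CPM in KO and 0.447 to 2.96 CPM in NTC tumors (1.28, SE 0.66, adjusted p = 0.624), and the neurotrophin gene *Bdnf* at 0.303 to 1.03 against 0.663 to 2.56 CPM (-0.97, SE 0.49, adjusted p = 0.617).

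**Figure D5:**
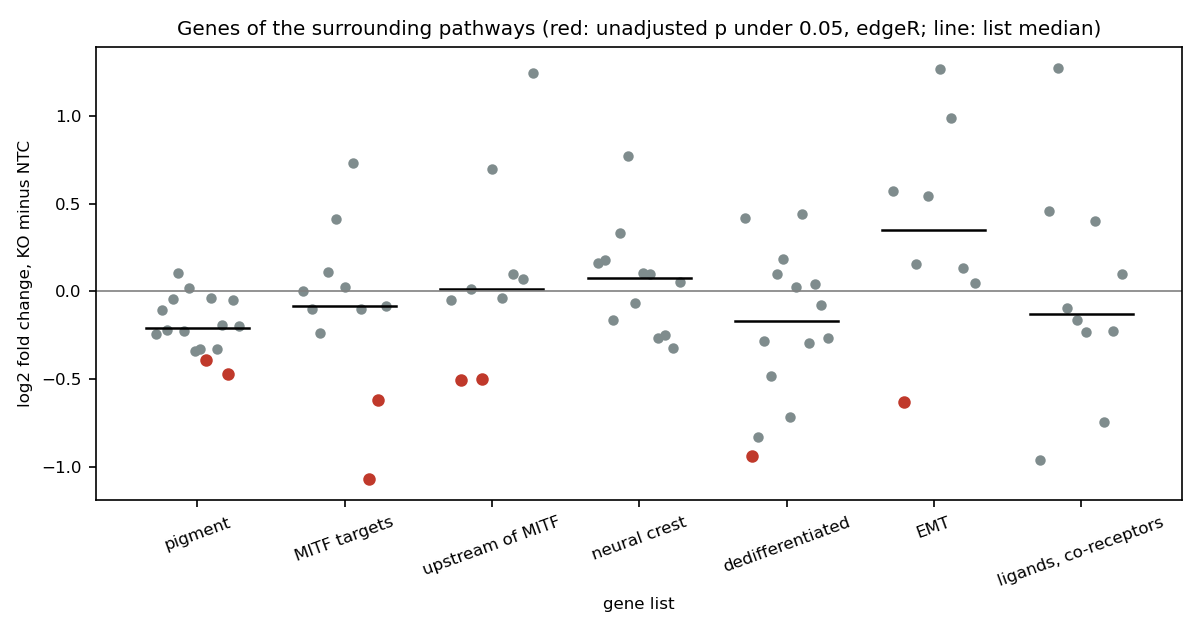
Each point is 1 tested gene of the list named on the horizontal axis, with its log2 fold change (KO minus NTC) on the vertical axis; lines are list medians and red points have an unadjusted edgeR p under 0.05. All 8 red points are below 0, and the lowest is *Ppargc1a* at -1.07.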

How the data were processed

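Libraries of total RNA from 10 tumors were sequenced on an Illumina NovaSeq platform. The submitters' processing notes name FastQC, Trimmomatic, HISAT2, HTSeq and mm10, without versions, and the strand setting and annotation are not given in the sources used here. The authors deposited raw read counts per gene symbol, 55401 rows per tumor, without normalization. HTSeq summary rows (35.3% to 64.1% of reads) were left out of library sizes.

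Here, KO was tested against NTC over all 10 tumors with edgeR 4.0.16 (quasi-likelihood test, TMM, filterByExpr, Benjamini-Hochberg adjustment) in R 4.3.3. The SE is the absolute log2 fold change over the square root of F. DESeq2 1.42.0 was an alternative. CPM used TMM library sizes, and log2 CPM a prior count of 2. Replicates are separate tumors by their labels only, so p-values measure the spread between these samples. Correlations used two-sided tests with 100000 permutations (scipy 1.17.1, Python 3.11.15). Gene positions and 3′ UTRs came from GENCODE M21 (GRCm38) and may not be the authors' annotation. The edgeR procedure was tested on simulated data with the same dispersion for every gene and no outlying tumor. These settings differ from the tumors, so the simulation gives no assurance on the calls here. The regulators and all gene lists were chosen with earlier results of these data known, and results that name 2 genes of the lists are not reported here. Named genes were the 10 regulators, in each list the called genes or the 2 with the lowest p, and the 3 genes most like each regulator, and the others named within lists were chosen after their values were seen. The labels do not say whether the replicate numbers pair the tumors, and the main test did not use them as pairs.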

Additional observations from a re-analysis of the deposited data

Results flagged for a closer look

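Levels of the 10 regulators, the 6 cell type scores and the summed marker lists were screened for tumors far from the rest of their group with Dixon's ratio of gap to range, in 50 groups of 5. Chance gives about 1 such tumor in 20 groups of normally distributed values. Most values here were CPM that were not checked for this, and 14 such tumors were found. All 50 groups come from the same 10 libraries and many of the measures move together, so these are not separate events. In 12 of the 14 the tumor was NTC replicate 1. *Mitf* was at 456 CPM there, against 789 to 920 CPM in the other NTC tumors, and *Sox10* at 112 against 203 to 228 CPM. *Ednrb* was at 132 against 2.99 to 24.1 CPM, *Egfr* at 56.2 against 0.394 to 9.59 CPM, and *Ngfr* at 0.943 against 0 to 0.173 CPM. The melanoma score was 8.76 against 9.52 to 9.64 log2 CPM. The same library had the fewest reads on genes and the largest share outside genes, and their part in these values was not tested. Its marker sums stood apart for melanoma (11850 against 20038 to 22444 CPM), fibroblasts (6975 against 79.2 to 1898 CPM), adipocytes (287 against 9.35 to 86.5 CPM), mast cells (38.5 against 2.16 to 10.7 CPM), muscle (4.71 against 1.30 to 2.07 CPM) and keratinocytes (6.06 against 1.83 to 2.91 CPM). Among KO tumors, replicate 4 held 216 CPM of muscle markers against 2.54 to 41.1 CPM in the others, and replicate 3 held 30.5 CPM of keratinocyte markers against 3.49 to 11.0 CPM.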

How the results depend on the processing

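With a replicate block, a paired fit, 1 gene was called in place of 3, and the call of no regulator or list gene changed. In that fit the log2 fold change of *Ednrb* was -0.08 in place of -1.46, and that of *Egfr* 1.24 in place of 0.00. The labels give same-numbered tumors no shared origin. Their correlations ran from -0.29 to 0.63, and only 2 of 5 numbers matched best with themselves. Requiring at least 10 counts in every tumor gave 6 called genes, dropping the fold threshold 5, the leukocyte score as a covariate 12, DESeq2 96 over 10 tumors and 754 over 9. At an unadjusted p under 0.05 there were 1400 genes, 3591 without the filter, 2122 with the leukocyte covariate and 4130 by DESeq2 over 9 tumors. For the list genes this was 8, against 15, 13 and 27. DESeq2 called 1 list gene over 10 tumors and 2 over 9. With each tumor left out in turn, 1 to 17 genes were called and 996 to 3230 had an unadjusted p under 0.05, with 5 to 21 list genes and 2 to 3 regulators among them. The 17, 3230 and 21 came without NTC replicate 1, and 5 without NTC replicate 4. Genes whose groups do not overlap numbered 370, and 1005 without NTC replicate 1. The cause of these shifts was not tested, beyond the genes and tumors each setting removes. Of 720 repeats of the correlations (2 other scalings and 10 left-out tumors), 683 stayed on the same side of the threshold, 23 lost it and 14 gained it, and none changed sign among those that had passed. With the leukocyte score as a covariate *Mitf* was at 0.25, *Zeb1* at -0.43 and *Sox9* at -0.98 on the log2 scale.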
